A study of Mus musculus with 2 samples.

Results

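Klf4 peaks were examined at 8 loci whose genes serve as markers of epithelial and mesothelial cells. The epithelial loci were Cdh1, Epcam, Krt7, Krt8, Krt18 and Krt19, and the mesothelial loci were Wt1 and Msln. A peak was taken as a member when its midpoint lay in a fixed window around the gene, from 27 to 100 kb long and 390 kb in all. Of the 7313 peaks in the list, 1 was a member, and it lay in the Krt8 window. The other 7 windows held none.

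The peaks come from chromatin immunoprecipitation with an anti-Klf4 antibody followed by sequencing (ChIP-seq) of mesenteric arcades, the vessels and surrounding tissue that feed the gut, from C57BL/6 mice on chow diet. The study has 1 library labelled eYFP+/+ Klf4delta/delta, from mice that lost Klf4 in smooth muscle cells (SMC), and 1 library labelled eYFP+/+ Klf4WT/WT, with Klf4 intact. Both groups carry eYFP, which the protocol assigns to SMC. The sources used here do not give the promoter that drives the deletion, the number, age and sex of the animals, or any pooling. The single peak list names neither genotype, so the genotypes were not compared and no value below carries a replicate error.

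The stromal vascular fraction was used, and the labels name epithelial cells beside SMC, macrophages and others as its contents. The deletion is described for SMC and for no epithelial or mesothelial cell. A peak is a place of enrichment in the whole mixture and measures no expression, so these loci cannot show how many epithelial or mesothelial cells the samples held. Fewer cells of a type and weaker occupancy per cell cannot be told apart.

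Klf4 is a zinc-finger transcription factor that binds GC-rich and CACCC-type sequence, and it is known for its roles in the skin barrier, in goblet cells of the gut and in the switch of SMC away from their contractile state. In human mammary epithelial cells it is known to bind the promoter of the E-cadherin gene. Simple epithelia hold their cells together through E-cadherin and are stiffened by keratin filaments, each made of a type II keratin paired with a type I keratin. The mesothelium, the flat cell layer that covers the mesentery, also makes keratins, along with the transcription factor Wt1 and the surface protein mesothelin.

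For Krt8 and Krt18, the keratin pair of simple epithelia, the sequence before the start site is shown because the 2 genes are neighbours and only the Krt8 window held a peak. Capitals mark CACCC or, where it lies on the other strand, GGGTG. The sequences are the 250 bases before each start in RefSeq on GRCm38.p6, at chr15:102004343-102004592 on the minus strand for Krt8 and at chr15:102027966-102028215 on the plus strand for Krt18. The peaks are on mm9, and positions were not converted between builds here, so the sequences were not placed relative to the Krt8 peak.
Krt8: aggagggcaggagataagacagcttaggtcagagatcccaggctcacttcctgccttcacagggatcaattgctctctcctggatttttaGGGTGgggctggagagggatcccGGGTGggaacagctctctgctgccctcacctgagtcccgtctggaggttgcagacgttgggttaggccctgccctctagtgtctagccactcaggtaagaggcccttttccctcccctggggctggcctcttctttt
Krt18: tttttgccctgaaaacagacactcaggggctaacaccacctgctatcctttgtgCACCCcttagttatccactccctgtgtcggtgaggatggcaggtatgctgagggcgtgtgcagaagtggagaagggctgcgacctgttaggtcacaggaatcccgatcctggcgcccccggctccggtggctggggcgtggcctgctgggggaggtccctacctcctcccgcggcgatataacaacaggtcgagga

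The Krt8 stretch held 2 matches to CACCC, both read on the opposite strand, ending 156 and 133 bases before the start. The Krt18 stretch held 1 match, on the strand of the gene, ending 192 bases before the start. The Epcam and Krt7 stretches, the only other members with a sequence in the table, held 1 match each. On either strand, 52.0% of all 32851 promoter stretches of this length held CACCC, so its presence does not set these genes apart. The longer CCACACCC, which contains CACCC, was in none of the 4 stretches and in 3.20% of all. CCNCNCCC, where N is any base and which can overlap the other motifs, had 1 match at Krt8, 3 at Krt18, 2 at Epcam and 2 at Krt7, and 45.9% of all stretches held at least 1. The GC content was 58.0% at Krt8, 60.4% at Krt18, 56.4% at Epcam and 66.0% at Krt7, against a median of 52.4% over all stretches. A match describes letters only, and whether the peak covers them was not determined.

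Krt8, the type II keratin of simple epithelia, was the only marker gene with a Klf4 peak in its window. The peak lay at chr15:101834223-101834732 on mm9, 510 bp wide, with a score of 80.09 from the authors' peak caller. Its midpoint was 3.0 kb from the centre of the Krt8 window, which runs from 101815000 to 101848000, and its ends were 19.2 and 13.3 kb inside the window's borders. Which exon, intron or promoter it falls in was not determined, since an mm9 annotation was not used here.

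It was a narrow, low-scoring peak for this list. Among all 7313 peaks, 23.2% scored lower and 6.45% were narrower. The medians of the list were a score of 112.02 and a width of 913 bp, and the lowest score was 60.01. Among the 286 peaks of chromosome 15, 21.7% scored lower and 4.55% were narrower. Per kb of its width the score was 157.0, and 69.1% of all peaks had a lower value by that measure, so its rank depends on whether the score is divided by width. These scores are the authors' own values and rank peaks only within this list.

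**Figure D1:**
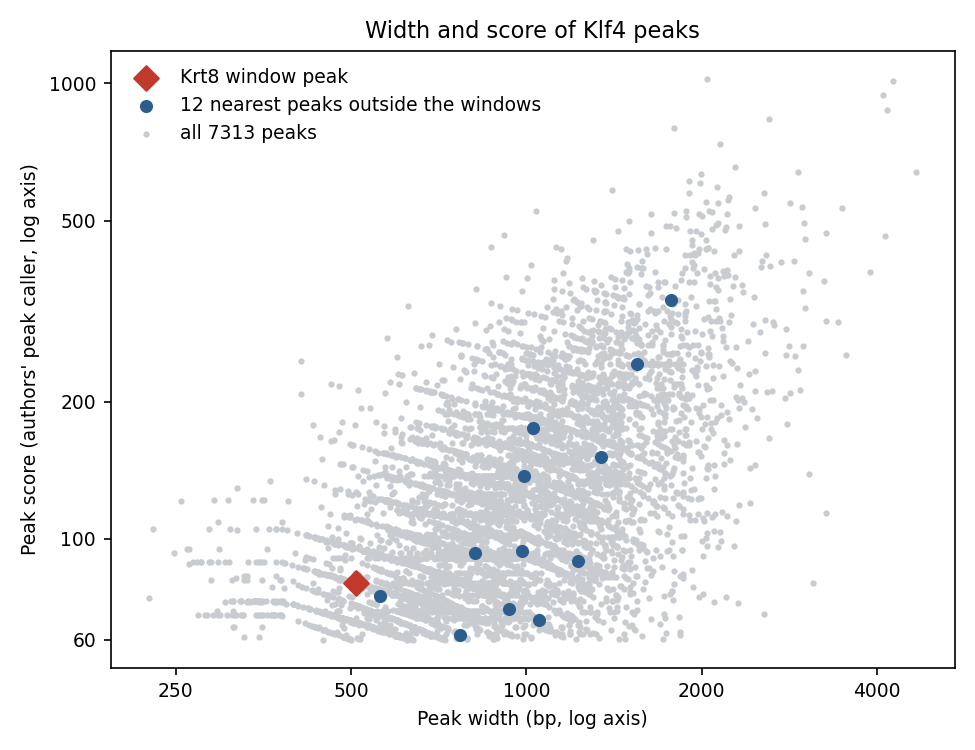
Score from the authors' peak caller (vertical, log axis) against width in bp (horizontal, log axis). The red diamond is the Krt8 peak (510 bp, score 80.09), blue points are the 12 distinct peaks nearest to the 8 windows on either side, and grey points are all 7313 peaks. The Krt8 peak is narrower than all 12.

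A count of 1 locus in 8 (12.5%) was near the background of the list. When the chromosomes were divided into tiles of 33 kb, the length of the Krt8 window, 7.84% held a peak midpoint. The same share was 6.58% at 27 kb (Krt18), 7.20% at 30 kb (Krt19), 8.26% at 35 kb (Msln), 9.29% at 40 kb (Krt7) and 10.2% at 45 kb (Epcam). For the longest windows it was 16.2% at 80 kb (Wt1) and 19.1% at 100 kb (Cdh1). Beside the 1 locus found, these 8 shares add up to 0.848 loci. The sum was 1.28 loci with tiles in 1 Mb bins that hold at least 1 peak, a choice that raises it by construction. It was 0.993 with tiles of each locus's own chromosome, so the count lay above or below the background depending on the tiles used. The absence of a peak from any single window is therefore what most stretches of that length show. Tiles were laid over whole chromosomes and not only over genes, and the share of gene-containing windows with a peak was not determined.

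**Figure D2:**
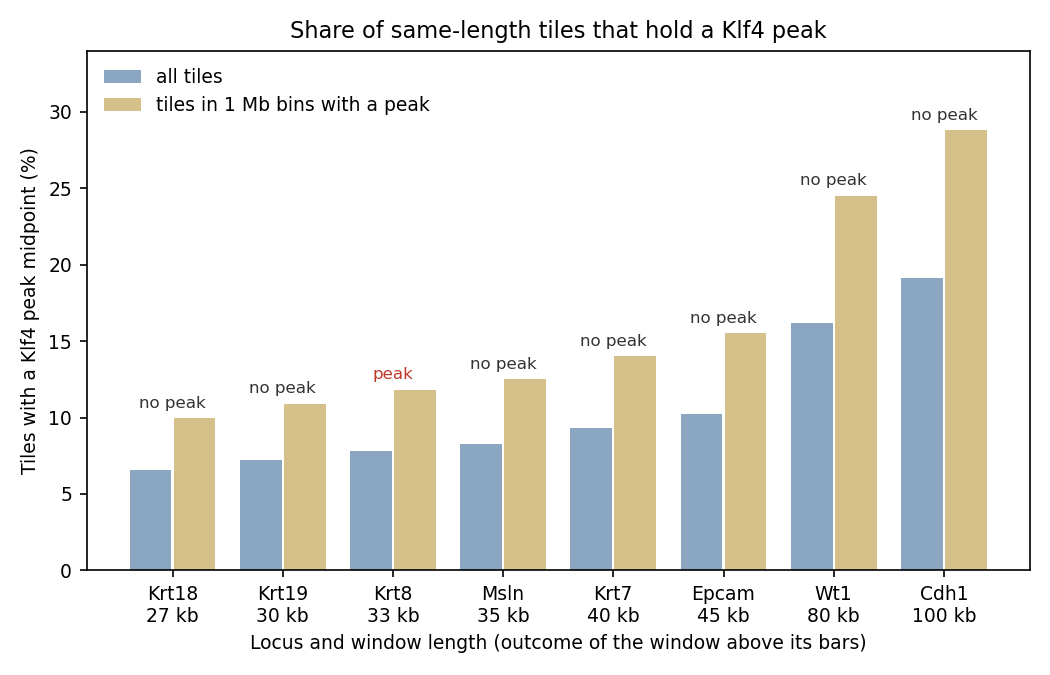
Percent of tiles that hold a Klf4 peak midpoint, for tiles as long as each locus window, ordered by length. Blue bars are all tiles, tan bars are tiles in 1 Mb bins that hold at least 1 peak, and the word above each pair says whether the window itself held a peak. Blue bars run from 6.58% to 19.1%, and only Krt8 is marked with a peak.

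The 390 kb of windows held 0.256 peaks per 100 kb (exact Poisson 95% interval 0.00649 to 1.43, counting error only). The sequence out to 500 kb on each side of the window centres, 6.22 Mb without the windows and with shared stretches joined, held 44 peaks or 0.707 per 100 kb (0.514 to 0.949). All chromosome spans together held 0.286 per 100 kb. The interval of the windows covered both other rates, because a single peak leaves a wide interval. Both intervals treat peaks as independent and are too narrow where peaks cluster, which was not tested. The surroundings were fuller than the usual stretch: all 8 loci had between 4 and 10 peaks within their 1 Mb, while 29.8% of 1 Mb bins held at least 4 and the median bin held 2. Krt8 and Krt18 share the same 8 peaks, so these are not 8 separate observations, and the bins include gene-poor sequence.

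**Figure D3:**
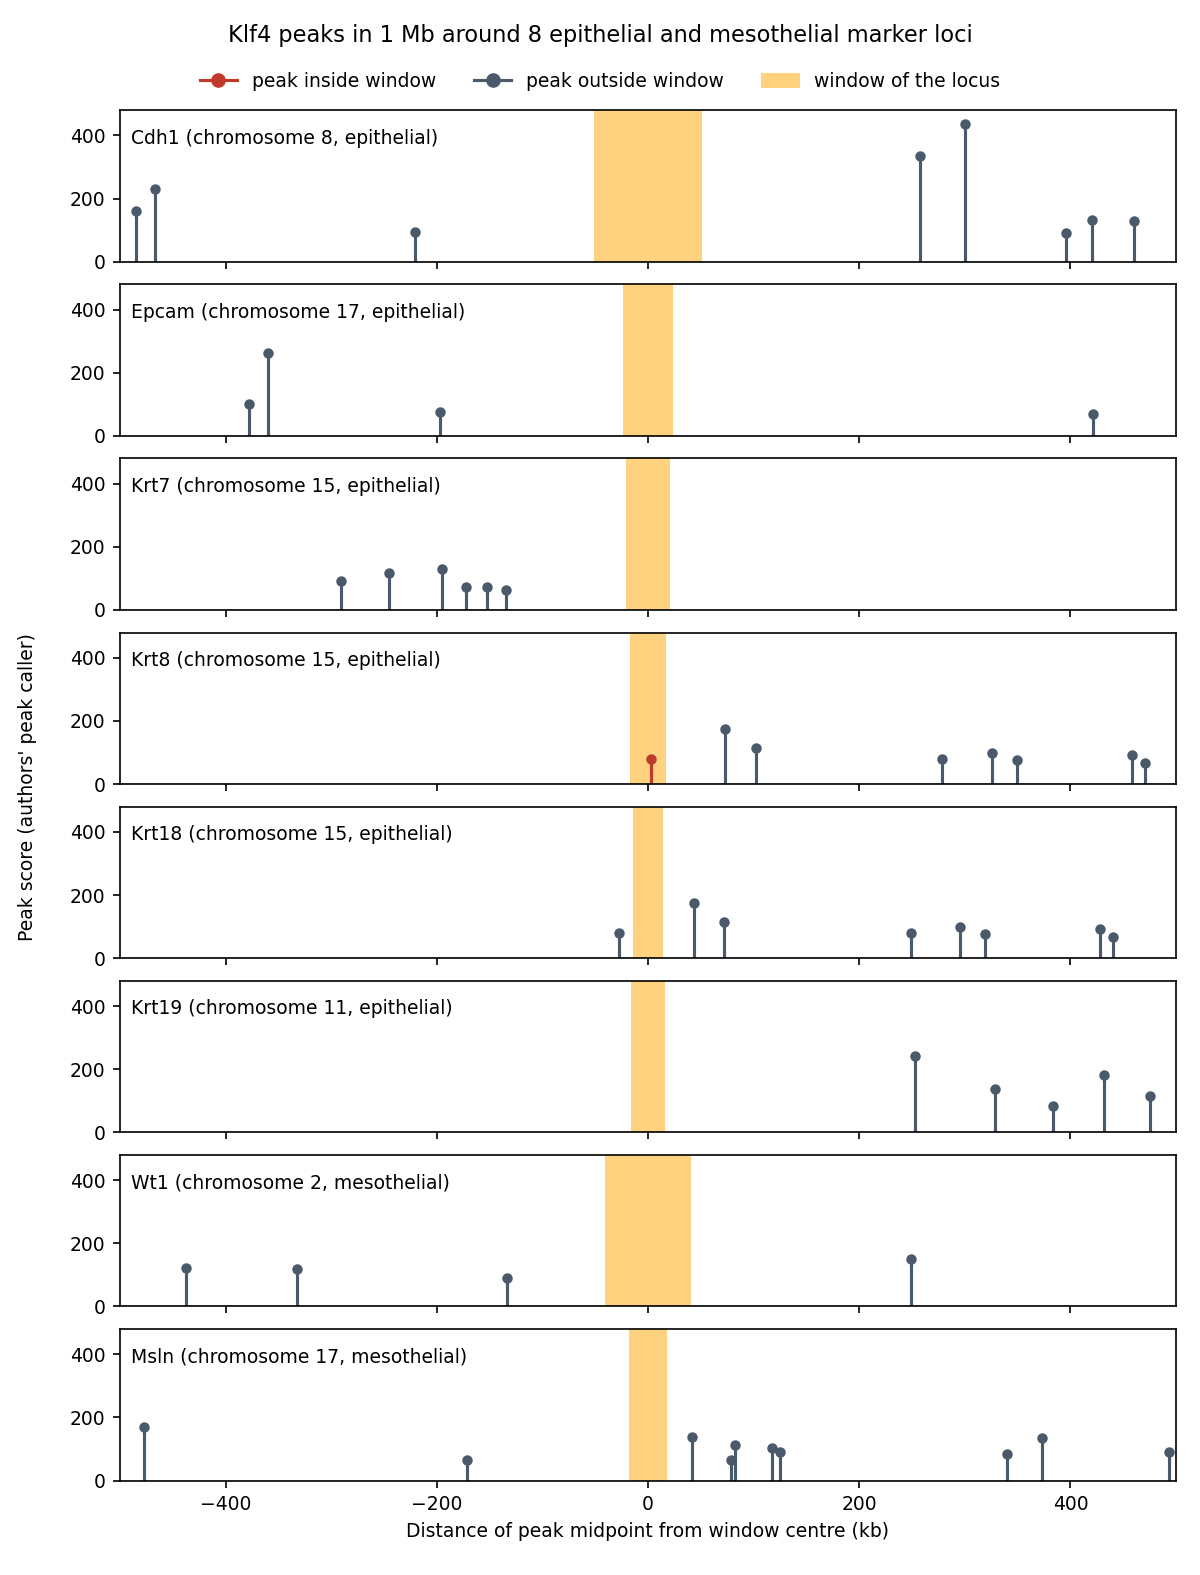
Klf4 peaks within 500 kb of each window centre (horizontal, kb; vertical, score from the authors' peak caller), 1 row per locus. Shaded bands are the windows, the red stem is the only peak inside a window (Krt8, score 80.09) and grey stems are peaks outside. The Krt7 row is empty after its window and the Krt19 row is empty before it.

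Krt18 encodes the type I keratin that pairs with keratin 8. Its window on chromosome 15, from 101848000 to 101875000, held no peak, although it adjoins the Krt8 window. The Krt8 peak ended 13.3 kb before it, and the next peak began 29.3 kb after it, at chr15:101904303-101905330, with a score of 174.99 and a width of 1028 bp. That next peak scored above 79.8% of the list, more than the Krt8 peak. Ordered by lower coordinate in the RefSeq gene table, no protein-coding gene and 2 other genes fall between Krt8 and Krt18. Whether those 2 overlap Krt8 was not determined. The protein-coding gene after Krt18 is Eif4b, a translation initiation factor gene. The peak-free stretch over Krt18 was 69.6 kb, shorter than the median of 94.1 kb over the 7278 stretches between neighbouring peaks. Stretches at least as long made up 96.6% of the total span.

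Krt7, a type II keratin of simple and ductal epithelia and of mesothelium, had no peak in its window from 101230000 to 101270000 on chromosome 15. It lay in a peak-free stretch of 718.8 kb that began 114.5 kb before the window and ended at the Krt8 peak, 564.2 kb after it. The peak before it, at chr15:101114687-101115454, had a score of 61.59, near the lowest of the list. All 6 peaks within 500 kb of the centre of the Krt7 window came before it, with scores from 61.59 to 130.79. The 545 kb between the Krt7 and Krt8 windows held 0 peaks. Ordered by lower coordinate, the RefSeq table places 23 protein-coding genes between Krt7 and Krt8, of which 22 are keratin genes by name. Stretches at least as long made up 66.5% of the total span, so lying in such a stretch was not unusual for a position. By count such stretches were a minority, 872 of 7278 over all chromosomes and 35 of 285 on chromosome 15.

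Krt19, the smallest type I keratin of simple epithelia, had no peak in its window from 99990000 to 100020000 on chromosome 11. Its peak-free stretch was the longest at these loci, 1009.5 kb, with the nearest peaks 741.9 kb before and 237.5 kb after the window. On chromosome 11, which had the most peaks of the chromosomes holding these loci, 22 of 616 stretches were at least as long. Over all chromosomes, stretches at least as long made up 58.1% of the total span. Of the 20 protein-coding genes around Krt19 in the RefSeq table, 10 on each side, 14 are keratin genes by name. The peak that ends the stretch, at chr11:100257522-100259067, was 1546 bp wide with a score of 242.09, above 91.7% of the list. All 5 peaks within 500 kb of the centre followed the window, with scores from 82.6 to 242.09.

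Cdh1, the gene of E-cadherin, had no peak in the widest window, from 109110000 to 109210000 on chromosome 8. The nearest peaks were 169.8 kb before it, at chr8:108939205-108940188 with a score of 94.18, and 206.4 kb after it, at chr8:109416416-109418185 with a score of 333.91. The peak after the window was the highest-scoring of the 12 nearest to the windows, above 97.5% of the list, and 1770 bp wide. Within 500 kb of the centre there were 8 peaks, with scores from 90.8 to 434.88, the highest seen around any of the 8 loci. The peak-free stretch over Cdh1 was 476.2 kb.

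Epcam, the gene of the epithelial cell adhesion molecule, had no peak in its window from 88020000 to 88065000 on chromosome 17. The nearest peaks were 173.7 kb before it, at chr17:87845731-87846290, and 398.3 kb after it, at chr17:88463264-88464196. They were low, with scores of 75.04 and 70.21, below which lay 17.1% and 12.5% of the list. Only 4 peaks lay within 500 kb of the centre, as few as at Wt1 and fewer than at the other loci.

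Wt1, a zinc-finger transcription factor of mesothelium and kidney podocytes, had no peak in its window from 104950000 to 105030000 on chromosome 2. The nearest peaks were 92.5 kb before it, at chr2:104856282-104857506 with a score of 89.36, and 208.5 kb after it, at chr2:105238452-105239794 with a score of 151.5. The 4 peaks within 500 kb of its centre scored between 89.36 and 151.5, and the stretch over the window was 380.9 kb.

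Msln, the gene of mesothelin, had no peak in its window from 25870000 to 25905000 on chromosome 17, but had the fullest surroundings of the 8 loci, with 10 peaks within 500 kb of the centre. A peak at chr17:25928653-25929641, 989 bp wide with a score of 137.29, began 23.7 kb after the window, closer to its window than any other outside peak except the Krt8 peak beside Krt18. On the other side the nearest peak was 153.0 kb away, at chr17:25715908-25716957, with a score of 66.28. In the RefSeq table Msln is followed by Ciao3 among protein-coding genes, and no peak outside a window was assigned to a gene.

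Set by distance from the window centre to the nearest peak, the loci ran from Krt8 (2.7 kb) through Krt18 (26.8 kb), Msln (41.2 kb), Wt1 (132.5 kb), Krt7 (134.5 kb), Epcam (196.2 kb) and Cdh1 (219.8 kb) to Krt19 (252.5 kb). Positions spaced every 10 kb over all chromosome spans give the scale for these distances. At Krt8, 98.3% of them were at least as far from a peak, and at Krt19 it was 50.3%. At the 6 loci between, the share ran from 53.5% at Cdh1 to 88.0% at Krt18. At least 50.3% of positions were thus as far from a peak as each of the 8 centres, although 7 windows held none. Against positions on the same chromosome, the share fell below 50% at Krt19 (34.8%, on peak-rich chromosome 11) and at Epcam (49.4%). Over the epithelial group 1 of 6 loci held a peak and over the mesothelial group 0 of 2, numbers too small to set the groups apart. The groups are also not distinct as markers, since the mesothelium makes keratins too.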

How the data were processed

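ChIP-seq was done with an anti-Klf4 antibody on tissue fixed in 1% paraformaldehyde for 10 minutes, with fragments of 200 to 600 bp, per the labels' protocols. The submitters' processing notes list Bowtie and SAMtools, and mm9 as the build. The deposited file is a single list of start, end, name and score per peak. Peak names begin with MACS. The score is the authors' own per-peak value, and the sources used here give neither its formula nor the caller's threshold, the control library or the read depth. Starts were shifted by 1 base to count from 1.

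The windows are in mm9. The RefSeq gene table is on GRCm38.p6, so it served only for names, chromosomes and neighbours: all 8 genes matched, on the chromosome of their window. A planned list of further epithelial and mesothelial genes needed mm9 annotation and was not analysed here, nor were protein sequences. Promoter sequences were found for 4 of 8 genes.

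A peak was counted by its midpoint. Tiles, and the 1 Mb bins in which peaks were counted, began at the first peak of each of 20 chromosomes. The 1 Mb bins used to select tiles began at the start of each chromosome. Spans ran from first to last peak, 2548.9 Mb in all. Counting was tested on simulated peaks planted in the windows. No test of significance was made. All 8 loci and each member or nearest peak were named by rule. The members and lists were chosen with earlier results of these data known. The density within 500 kb, the 10 kb grid, peak-free stretches and gene neighbours were chosen after the data were seen. Software was matplotlib 3.10.9, scipy 1.17.1, pandas 2.3.3 and numpy 2.4.6 under Python 3.11.15.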

Additional observations from a re-analysis of the deposited data

How the results depend on the processing

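The count of 1 peak at 1 locus was the same when any overlap of 1 base counted, with windows widened by 10 kb and with peaks under 1 kb apart merged. With windows widened by 50 kb there were 3 distinct peaks at 3 loci, Krt8, Krt18 and Msln, by construction of the longer windows. Krt8 and Msln held 1 each and Krt18 held 2, of which 1 was the Krt8 peak. With the upper 50% or the upper 25% of scores there were 0 peaks and 0 loci, since the Krt8 peak scored under the median. The density of 0.256 peaks per 100 kb became 0 without the Krt8 window and stayed between 0.275 and 0.345 without any other locus. The score of 80.09 became 157.0 per kb of width. The mean share of tiles with a peak, 10.6%, was 16.0% in 1 Mb bins that hold a peak, a choice of bins that raises it by construction. No paired analysis was possible because the single list names no genotype and each genotype had 1 library, and the comparison of genotypes was not run. With read depth not given, a window without a peak does not show absence of Klf4.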
